A study of Mus musculus with 80 samples.

Results

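Cx3cr1 and Csf1r are the receptors through which microglia receive the signals of fractalkine, colony-stimulating factor 1 and interleukin 34, and the account here follows these receptors and their ligands through every preparation of the study. The members were chosen by gene symbol, as the receptor genes Cx3cr1 and Csf1r and the ligand genes Cx3cl1, Csf1 and Il34. They are 5 of 15919 genes listed in the table of the sort comparison and 5 of 16000 in the table of the cell preparation comparison, and all 5 passed the filter on low counts in both tables.

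Cx3cr1 is a G protein-coupled receptor of myeloid cells, and its ligand is the chemokine fractalkine, which Cx3cl1 encodes. Neurons make fractalkine as a membrane-bound protein whose chemokine domain can be shed by the proteases Adam10, Adam17 and cathepsin S (Ctss). Csf1r is a class III receptor tyrosine kinase on which microglia depend for survival, and it is activated by colony-stimulating factor 1 (Csf1) and by interleukin 34 (Il34). In the adult brain Il34 is known as a product of neurons, whereas Csf1 is made by glial cells.

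The RNA came from brains of male and female mice labelled Cx3cr1(Jung)-cre/Ert2+; NuTRAP+, treated with tamoxifen at 100 mg/kg at about 3 months of age. The cre/ERT2 sequence sits in the Cx3cr1 locus and the mice of every group were heterozygous for it, so the level of Cx3cr1 was read throughout in animals with a modified allele. Tamoxifen switches on an eGFP-tagged ribosomal protein in cells that use the Cx3cr1 promoter, which makes Cx3cr1 itself part of how cells and ribosomes were selected. The Input fraction was the RNA of a homogenate, and the TRAP fraction was the RNA bound to the tagged ribosomes pulled from it with an anti-GFP antibody. No group lacked the transgenes or tamoxifen.

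In the sort comparison, whole tissue (Tissue) and an enzymatic and mechanical cell suspension (Cell) came from the same 4 mice. Sorted microglia came from other mice, by CD11b magnetic beads (autoMACS, 4 mice), cartridge-based sorting of CD11b+CD45+eGFP+ cells (Tyto, 5 mice), cytometer-based sorting of the same cells (FACSAria, 4 mice) or beads followed by the cartridge (autoMACS to Tyto, 3 mice). These were 10 mice in all, since autoMACS shared 3 mice with autoMACS to Tyto and Tyto shared 3 with FACSAria. In the cell preparation comparison, Tissue 2 was again tissue of the 4 Tissue mice, Dounce was a mechanical homogenisation at 4 °C of 4 other mice, and 4 further mice each gave an enzymatic suspension without and with transcription and translation inhibitors (Cell (-) Inhibitors and Cell (+) Inhibitors). Each preparation has an Input and a TRAP library per mouse, which makes 80 libraries in all.

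The genes stand at separate loci of the mouse genome (mm10, gene ends as deposited by the authors). Cx3cr1 (Entrez 13051) lies at chr9:120048683-120068296 on the minus strand and Csf1r (12978) at chr18:61105572-61131139 on the plus strand. Cx3cl1 (20312) lies at chr8:94772180-94782426 on the plus strand and Il34 (76527) on the same chromosome at chr8:110741829-110805903 on the minus strand. Csf1 (12977) lies at chr3:107741048-107760469 on the minus strand.

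Library totals over the listed genes ran from 7129464 to 20168116 counts in the sort comparison and from 2471448 to 14650287 among the libraries of cell preparations, with the lowest totals in Dounce-TRAP. Levels are given as CPM, the counts per 1000000 listed counts of the library. The summed level of 12 microglial markers lay between 395 and 591 CPM in Tissue-Input, between 9105 and 10572 CPM in Tissue-TRAP and between 25579 and 40792 CPM in the sorted libraries, with none of the 12 at 0. The summed level of 8 neuronal markers fell the other way, from between 8447 and 9094 CPM in Tissue-Input to between 10.7 and 51.1 CPM in the sorted libraries. The 5 markers of border-associated macrophages, which also carry both receptors, rose with the microglial list, from between 7.15 and 13.9 CPM in Tissue-Input to between 284 and 1648 CPM in sorted libraries. Their part in the receptor levels was not tested.

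The upstream sequences of Cx3cr1 and Csf1 are shown because Cx3cr1 drove the tag and Csf1 was the only ligand that rose when tissue was dissociated. RefSeq promoters (GRCm38.p6, the assembly mm10 is made from) matched 3 of the 5 members, and Csf1r and Il34 are named only. Each run below is the 250 bases before the gene's start, read on the gene's own minus strand, at chr9:120068297-120068546 for Cx3cr1 and chr3:107760470-107760719 for Csf1. Capitals mark a match to the kappaB consensus, which lies on the other strand in Csf1 and is missing from Cx3cr1.
Cx3cr1: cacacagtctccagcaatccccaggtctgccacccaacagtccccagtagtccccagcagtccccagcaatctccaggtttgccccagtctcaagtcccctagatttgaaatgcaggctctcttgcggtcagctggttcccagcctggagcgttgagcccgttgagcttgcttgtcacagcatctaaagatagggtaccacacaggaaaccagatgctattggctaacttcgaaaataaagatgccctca
Csf1: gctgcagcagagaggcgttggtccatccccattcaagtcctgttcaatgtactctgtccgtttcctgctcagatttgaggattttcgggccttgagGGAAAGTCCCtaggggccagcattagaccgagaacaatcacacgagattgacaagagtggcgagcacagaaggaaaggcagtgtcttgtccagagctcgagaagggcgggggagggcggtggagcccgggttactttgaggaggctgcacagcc
The motif in Csf1 began 154 bases before the start, and 1281 of 32851 mouse promoter windows of the same length (3.9%) hold the consensus on either strand. The other motifs searched on both strands were the AP-1 motif TGANTCA, the cAMP response element TGACGTCA and the PU.1 core GAGGAA, held by 6.75%, 1.55% and 23.3% of the windows. Neither sequence holds any of these, and the window of Cx3cl1 holds GAGGAA at 2 places. The motifs were picked with these genes in view, and a match is a match of letters only.

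Whole tissue was the setting in which the ligand of Cx3cr1 far exceeded its receptor. Per kb of exon, Cx3cl1 stood at 161 ± 10.9 CPM (SD, n = 4) in Tissue-Input and Cx3cr1 at 5.55 ± 1.08 CPM. Cx3cl1 ranked 233 of 14787 genes by level per kb there and Cx3cr1 ranked 6983. For the other receptor the excess was smaller, with Il34 at 24.8 ± 1.04 CPM per kb, Csf1r at 15.8 ± 4.19 and Csf1 at 4.04 ± 0.304. From Cx3cl1 down through Il34, Csf1r and Cx3cr1 to Csf1, no neighbours in this order overlapped in their library ranges per kb. In Tissue 2-Input, which came from the same mice and is no independent replicate, the means had the same order and the ranges of Cx3cr1 and Csf1 overlapped.

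The pull-down of tagged ribosomes from tissue enriched the receptors and changed the ligands by less than the fold of 2. In Tissue-Input, Cx3cr1 stood at 22.6, 32.2, 21.5 and 23.8 CPM in mice 946, 947, 948 and 949, and in Tissue-TRAP at 423, 484, 487 and 449 CPM. Csf1r stood at 78.4, 127, 79.9 and 78.3 CPM in Tissue-Input and at 1940.3, 1720.1, 2089 and 1847 CPM in Tissue-TRAP. The TRAP libraries of both receptors lay far above all Input libraries, and the Input library of mouse 947 was the highest for both. Cx3cr1 was 20.1-fold higher in TRAP (log2 fold change 4.33, SE 0.12, FDR = 4.8e-30 by edgeR's quasi-likelihood test) and Csf1r was 22.8-fold higher (4.51, SE 0.18, FDR = 7.22e-25). A gene was called when its FDR was under 0.1 and its fold change above 2. These were 2 of 5 members called, where 11.1% of all genes tested were called in that comparison. Fold changes were computed after scaling for library composition, so they differ slightly from ratios of the CPM values. The fits had group as the only factor, so the pairing of Input and TRAP within a mouse was not used.

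None of the ligands was called between Tissue-TRAP and Tissue-Input. Cx3cl1 stood at 637, 582, 621 and 686 CPM in Input and at 659, 633, 636 and 801 CPM in TRAP, and the fractions overlapped (log2 fold change 0.24, SE 0.24, FDR = 0.547). Il34 was lower in every TRAP library, at 31.98 to 35.98 CPM against 46.8 to 51.4 CPM, but the difference of -0.41 (SE 0.33) had an FDR of 0.413. Csf1 differed by -0.19 (SE 0.23, FDR = 0.617). In Tissue 2, from the same mice, Il34 was at 27.96 to 36.2 CPM in TRAP and 44.2 to 58.8 CPM in Input, and the difference of -0.66 (SE 0.24, FDR = 0.0418) passed the FDR but not the fold of 2. Cx3cl1 (0.22, FDR = 0.645) and Csf1 (-0.13, FDR = 0.742) did not pass there either. The summed neuronal markers stood at 7661 to 8914 CPM in Tissue-TRAP, overlapping Tissue-Input. In bulk RNA, fewer cells of a type and less RNA per cell cannot be told apart.

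**Figure D1:**
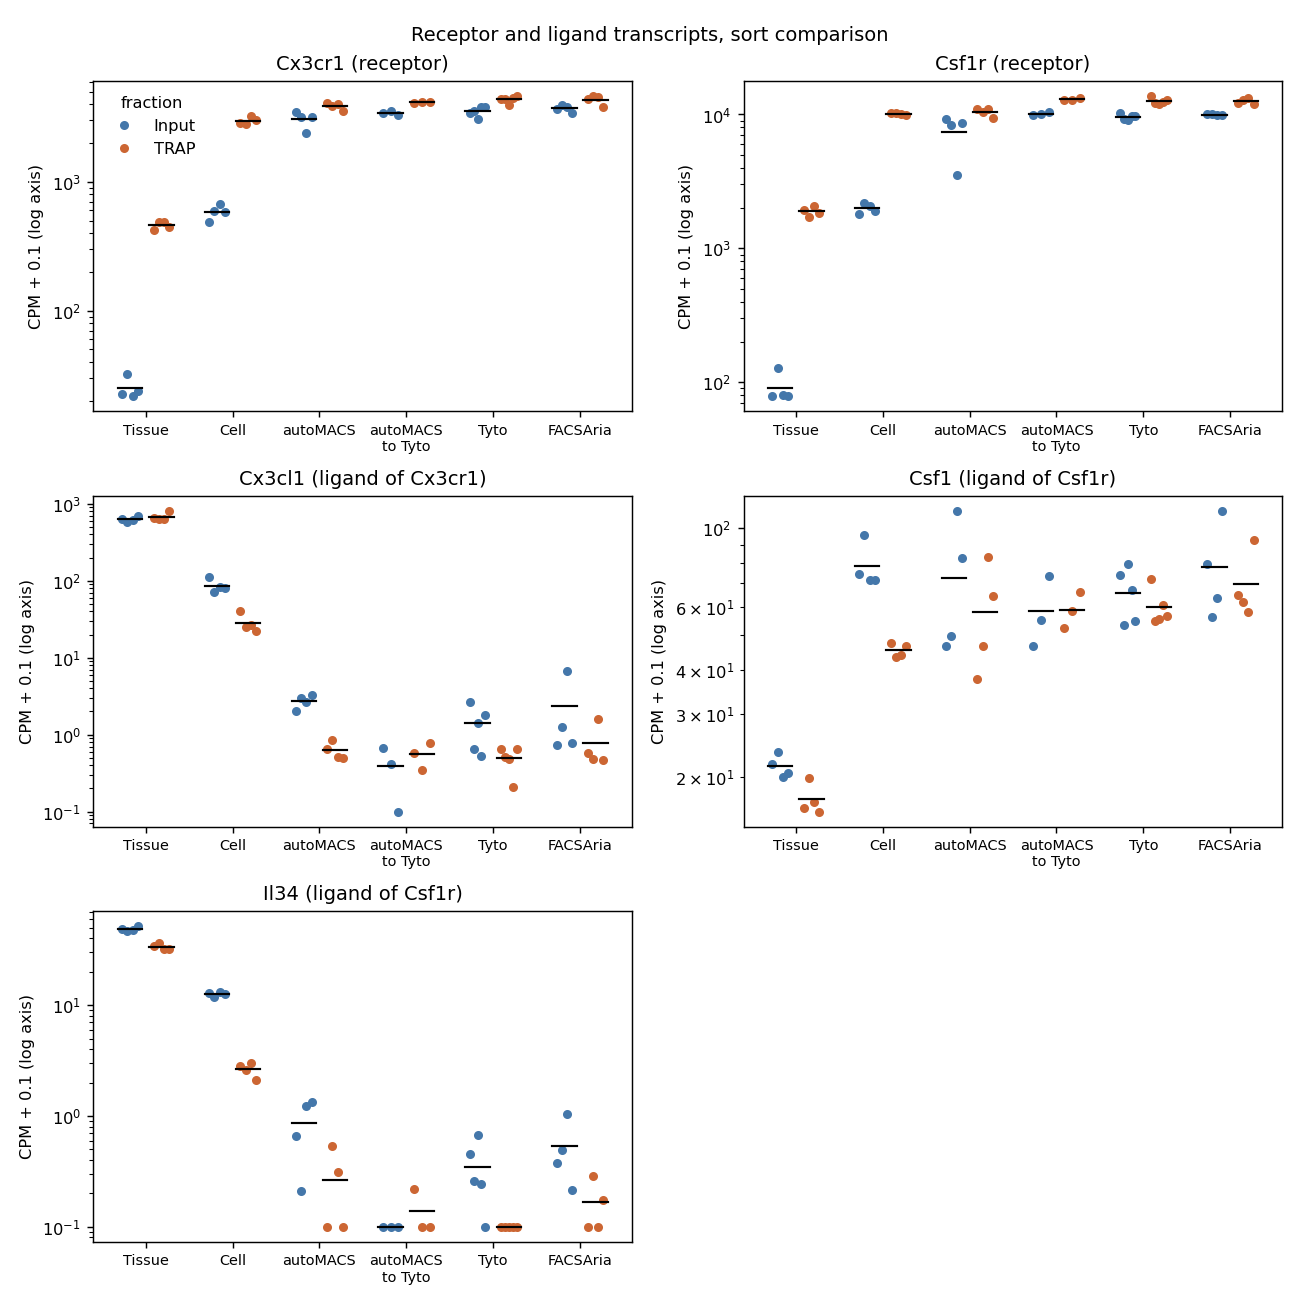
Level of each member in every library of the sort comparison, as CPM + 0.1 on a log axis, by preparation, with Input in blue, TRAP in orange and the group mean of CPM + 0.1 as a bar. Both receptors climb from Tissue-Input, where Cx3cr1 is at 21.5 to 32.2 CPM, to the sorted groups, where Cx3cl1 and Il34 descend to about 0 to 6.58 CPM. Csf1 is at 19.8 to 23.5 CPM in Tissue-Input and higher in all dissociated groups. It is at 71.4 to 95.8 CPM in Cell-Input, 43.3 to 47.5 CPM in Cell-TRAP and 37.6 to 112 CPM in sorted libraries.

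Dissociation into a cell suspension raised both receptors and Csf1 and lowered Cx3cl1 and Il34, in the same mice. The edgeR fits behind these values took no account of the shared mice. All 5 members were called between Cell-Input and Tissue-Input, where 46% of all genes tested were called, and all 5 between Cell-TRAP and Tissue-TRAP, where 54.3% were. Both shares are high, so calls were common among genes of any kind in these contrasts.

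Cx3cr1 stood at 487, 595, 674 and 587 CPM in Cell-Input and Csf1r at 1805, 2199, 2075 and 1895 CPM, with no overlap with Tissue-Input. Cx3cr1 was 24.5-fold higher than in tissue (log2 fold change 4.61, SE 0.17, FDR = 1.61e-16) and Csf1r 22.9-fold higher (4.52, SE 0.25, FDR = 1.58e-13). The summed microglial markers rose beside them, to between 6324 and 7810 CPM. Among ribosome-bound RNA, Cx3cr1 went to 2872, 2788, 3223 and 3038 CPM in Cell-TRAP and Csf1r to 10315, 10212, 10064 and 9909.97 CPM. The increases over Tissue-TRAP were 8.03-fold for Cx3cr1 (3.00, SE 0.08) and 6.61-fold for Csf1r (2.72, SE 0.07). Csf1r, the more abundant receptor, then ranked 13 of 14787 genes per kb and Cx3cr1 ranked 39.

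Cx3cl1 stood at 111, 70.7, 84.0 and 79.9 CPM in Cell-Input and at 40.2, 25.3, 26.9 and 21.8 CPM in Cell-TRAP. It was 7.03-fold lower than in Tissue-Input (log2 fold change -2.81, SE 0.33) and 19.3-fold lower than in Tissue-TRAP (-4.27, SE 0.19). Il34 stood at 11.8 to 13.02 CPM in Cell-Input and at 2.03 to 2.93 CPM in Cell-TRAP, which was 3.72-fold lower (-1.90, SE 0.33) and 10.5-fold lower (-3.39, SE 0.36) than in the matching tissue fraction. Neither ligand's suspension libraries overlapped those of tissue. The summed neuronal markers moved the same way, to between 636 and 1453 CPM in Cell-Input and between 129 and 342 CPM in Cell-TRAP.

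Csf1 was the ligand that went against the other ligands. It stood at 21.7, 23.5, 19.8 and 20.4 CPM in Tissue-Input and at 74.5, 95.8, 71.4 and 71.4 CPM in Cell-Input, an increase of 3.83-fold (log2 fold change 1.94, SE 0.23, FDR = 1.09e-07). In TRAP it went from 15.9 to 19.8 CPM in tissue to 43.3 to 47.5 CPM in the suspension, 3.27-fold higher (1.71, SE 0.19, FDR = 6.47e-09). The groups did not overlap in either fraction. A list of 9 immediate early genes of the dissociation response moved with it, from a summed level of 374 to 496 CPM in Tissue-TRAP to 16862 to 22518 CPM in Cell-TRAP, and its part in the rise of Csf1 was not tested. Astrocyte markers (7 genes) also rose in Cell-Input, to between 8700 and 10837 CPM from between 3955 and 4293 CPM, and fell in Cell-TRAP, to between 1587 and 1803 CPM from between 4217 and 6181 CPM. Endothelial markers (5 genes) were higher in both fractions, going from 51.1 to 65.5 CPM up to 906 to 1674 CPM in Input and from 134 to 208 CPM up to 673 to 706 CPM in TRAP. Mural cell markers (3 genes) went from 20.6 to 27.7 CPM up to 184 to 257 CPM in Input and from 24.5 to 32.03 CPM up to 48.9 to 64.5 CPM in TRAP. The part of these cells in the rise of Csf1 was not tested.

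The exchange of ligands shows in the ratio of Csf1 to Il34 within a library, per kb of exon. In Tissue-Input the ratio was 0.163 ± 0.0167 (SD, n = 4) and in Tissue-TRAP 0.191 ± 0.0125, so Il34 exceeded Csf1 in every tissue library. In Cell-Input the ratio was 2.33 ± 0.450 and in Cell-TRAP 6.72 ± 1.27, so Csf1 exceeded Il34 in every suspension library. These ratios were set up after the values had been seen and carry no test.

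The TRAP enrichment of a suspension differed from that of tissue for 4 of the 5 members. Within the suspension, Cx3cr1 was 6.99-fold higher in TRAP than in Input (log2 fold change 2.81, SE 0.11) and Csf1r 6.97-fold (2.80, SE 0.16), while Cx3cl1 was 2.20-fold lower (-1.13, SE 0.26) and Il34 3.54-fold lower (-1.82, SE 0.37). That made 4 of 5 members called where 47.6% of all genes were, 16.8% higher and 30.9% lower, and Csf1 was not called (-0.33, SE 0.21, FDR = 0.154). The difference between the TRAP enrichments of suspension and tissue was tested as an interaction, in which 35.3% of all genes were called and the median over all genes was -0.29. It came to -1.52 (SE 0.15, FDR = 5.72e-11) for Cx3cr1, -1.71 (SE 0.22, FDR = 2.1e-08) for Csf1r, -1.37 (SE 0.36, FDR = 0.0012) for Cx3cl1 and -1.41 (SE 0.49, FDR = 0.0153) for Il34. For Csf1 it was -0.14 (SE 0.31, FDR = 0.712). The marker lists shifted in the same direction as the called members. The median sum of microglial markers went from 406 CPM in Input to 9555 CPM in TRAP of tissue, and from 7593 to 35512 CPM in the suspension. That of neuronal markers went from 8685 to 7828 CPM in tissue and from 1074 to 185 CPM in the suspension. The part of cell composition in the interaction was not tested.

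**Figure D2:**
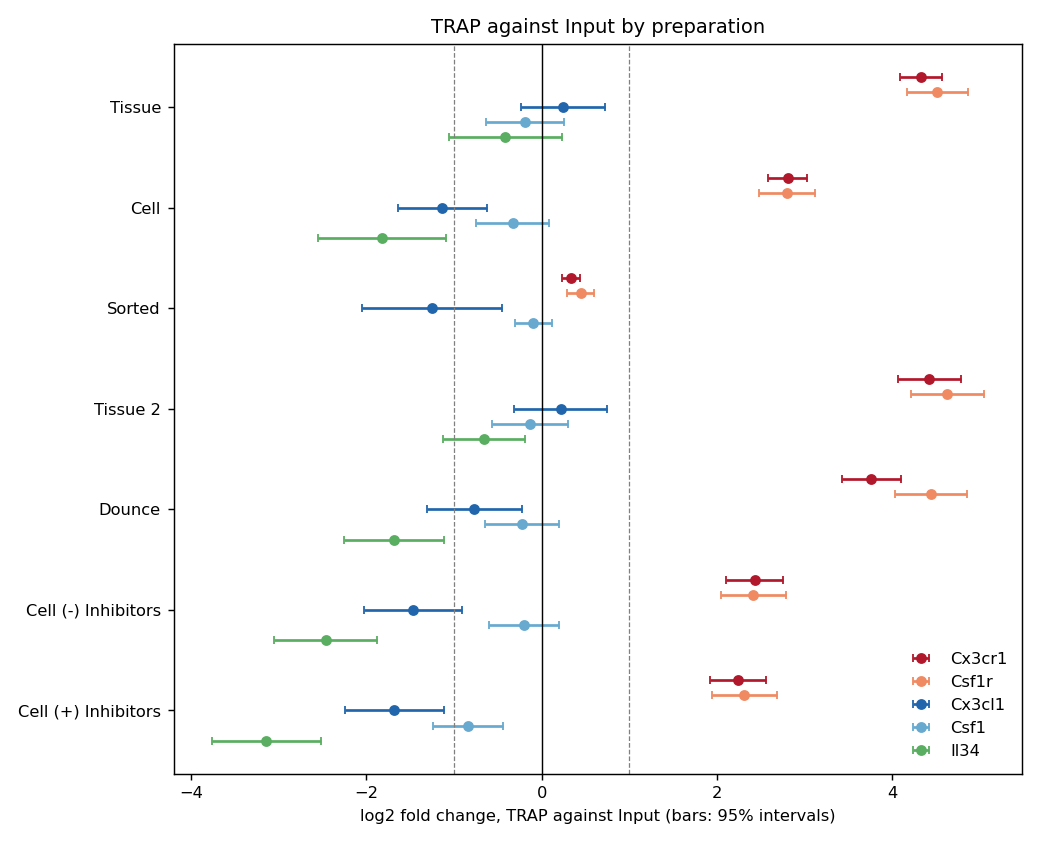
Log2 fold change of TRAP against Input for each member in each preparation, from edgeR, with bars for 95% intervals and dashed lines at the fold of 2. Receptor estimates run from 4.33 to 4.63 in tissue, from 2.23 to 2.81 in the enzymatic suspensions and from 0.33 to 0.44 in sorted cells, and Il34 is left out for sorted cells, where most libraries hold 3 counts or fewer.

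Sorting raised the receptors past the fold of 2 in the Input fraction and by less in TRAP, and took Cx3cl1 and Il34 close to 0. The sorted groups were averaged with equal weight and compared with the suspension, which came from other mice, so sorting and cohort cannot be told apart in these contrasts. Between sorted cells and Cell-Input, 4 of 5 members were called against 51.8% of all genes, and between Sorted-TRAP and Cell-TRAP 2 of 5 against 24.4%. Both counts include Il34, which met the filter only through Tissue and Cell. Most sorted libraries held 3 counts or fewer of Il34, so nothing is read from its calls.

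In Input, Cx3cr1 ran from 2373 to 3464.6 CPM after autoMACS, from 3063 to 3808 CPM after Tyto, from 3444 to 3945 CPM after FACSAria and from 3282 to 3520.0 CPM after autoMACS to Tyto. It was 7.31-fold above Cell-Input (log2 fold change 2.87, SE 0.14, FDR = 3.88e-15). Csf1r was 5.79-fold above Cell-Input (2.53, SE 0.20, FDR = 5.33e-11). Its Input libraries lay between 8293 and 10425 CPM except autoMACS mouse 72, which stood at 3538 CPM. Without that library the difference was 2.60.

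In TRAP the receptors were higher than in the suspension by less than the fold of 2. Cx3cr1 ran from 3517 to 4629 CPM over the 16 sorted TRAP libraries, all above the 4 of Cell-TRAP (log2 fold change 0.60, SE 0.06, FDR = 3.75e-09). Csf1r ran from 9395 to 13727 CPM, which overlapped Cell-TRAP (0.38, SE 0.06, FDR = 2.82e-06). Within sorted cells, TRAP exceeded Input by 1.26-fold for Cx3cr1 (0.33, SE 0.05) and by 1.36-fold for Csf1r (0.44, SE 0.08), with neither called and 18.9% of all genes called. Over the 8 sorted groups the rank per kb of Csf1r was 8 to 22 and that of Cx3cr1 was 30 to 39.

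Cx3cl1 was 54.5-fold lower in Sorted-Input than in Cell-Input (log2 fold change -5.77, SE 0.27, FDR = 2.64e-15) and 51.3-fold lower in Sorted-TRAP than in Cell-TRAP (-5.68, SE 0.18, FDR = 1.11e-18). These folds rest on few counts. The 16 sorted Input libraries together held 325 counts of Cx3cl1, or 1.69 CPM (exact 95% Poisson interval 1.51 to 1.89 CPM), and the 16 TRAP libraries held 138, or 0.513 CPM (0.431 to 0.606 CPM). The intervals cover counting error only. One library stood out, FACSAria-Input of mouse 991 at 6.58 CPM, against 0.642 to 1.14 CPM in the other libraries of that group. The TRAP library of the same mouse was also the highest of its group, at 1.50 CPM against 0.370 to 0.482 CPM. Cx3cl1 was called lower in TRAP than in Input of sorted cells (-1.25, SE 0.41, FDR = 0.0083), and without FACSAria-Input of mouse 991 the difference was -0.88 and no longer past the fold of 2. Without autoMACS to Tyto-Input of mouse 66 it was -1.05 and missed the FDR (0.109).

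Il34 was at or below 3 counts in 9 of 16 sorted Input libraries and in 14 of 16 sorted TRAP libraries, so no fitted fold is given. Pooled, sorted Input held 64 counts, or 0.333 CPM (0.256 to 0.425 CPM), against a mean of 12.5 CPM in Cell-Input. Sorted TRAP held 18 counts, or 0.0669 CPM (0.0396 to 0.106 CPM), against 2.56 CPM in Cell-TRAP. In the autoMACS to Tyto Input group, 0 counts in 3 libraries allowed a level of up to 0.095 CPM, taken as 3 counts of the total. In Tyto-TRAP, 0 counts in 5 libraries allowed up to 0.035 CPM.

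Csf1 stayed in sorted microglia, near the level of the suspension in Input and above it by less than the fold of 2 in TRAP. Its means in sorted Input ran from 58.3 CPM (autoMACS to Tyto) to 77.7 CPM (FACSAria), against 78.3 CPM in Cell-Input, and the difference was 0.11 on the log2 scale (SE 0.18, FDR = 0.577). In TRAP its means ran from 57.9 CPM (autoMACS) to 69.4 CPM (FACSAria), against 45.4 CPM in Cell-TRAP, a difference of 0.55 (SE 0.14, FDR = 0.0019) that was under the fold of 2. The spread between mice was wide, with autoMACS-Input at 46.7, 49.6, 112 and 82.4 CPM. Sorted TRAP and Input did not differ past the test (-0.09, SE 0.11, FDR = 0.484). The 9 dissociation response genes stayed high beside it, at 18024 to 31925 CPM in sum, while 7 astrocyte markers summed to 118 to 379 CPM, and the part of either in the level of Csf1 was not tested.

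Between the 4 sort methods, neither receptor nor Csf1 was called in an F test over the methods, in which 7.42% of all genes were called in Input and 4.17% in TRAP. The test took the 16 libraries of a fraction as independent although they came from 10 mice, and the methods that share no mice cannot be told apart from their cohorts. Csf1r in TRAP passed the FDR (0.0025), but its largest difference between any pair of methods was 1.28-fold. Its autoMACS-TRAP libraries, at 9395 to 11077 CPM, lay below all libraries of the other methods, at 11982 to 13727 CPM. Cx3cr1 in TRAP differed by at most 1.15-fold (FDR = 0.122). Cx3cl1 was called in Input (FDR = 0.0657), on 0 to 70 counts a library, and the call was lost in a fit of the sorted groups alone (FDR = 0.169), without autoMACS mouse 67 (FDR = 0.104), and without autoMACS to Tyto mouse 67 (FDR = 0.149) or mouse 73 (FDR = 0.145). Il34 was called in Input as well (FDR = 0.0539), on 0 to 11 counts a library, so the called members were 2 of 5. No sorted Input group had all its libraries above 5 counts of Il34, which met the filter only through Tissue and Cell. No difference between the sorts is read from its call.

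The cell preparation comparison asked whether mechanical preparation in the cold, or inhibitors during enzymatic dissociation, changed these transcripts. Against Tissue 2, the enzymatic suspensions repeated the pattern of the sort comparison, and the Dounce preparation held more Cx3cl1 and Il34 and less Csf1r than they did. Tissue 2 came from other mice than the dissociated groups here. By the study's own quality measures RNA integrity was lowest in Dounce-Input, and coverage leaned further to the 3′ end in the Tissue and Dounce groups than in the suspensions. Preparation therefore cannot be told apart from cohort and RNA quality.

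**Figure D3:**
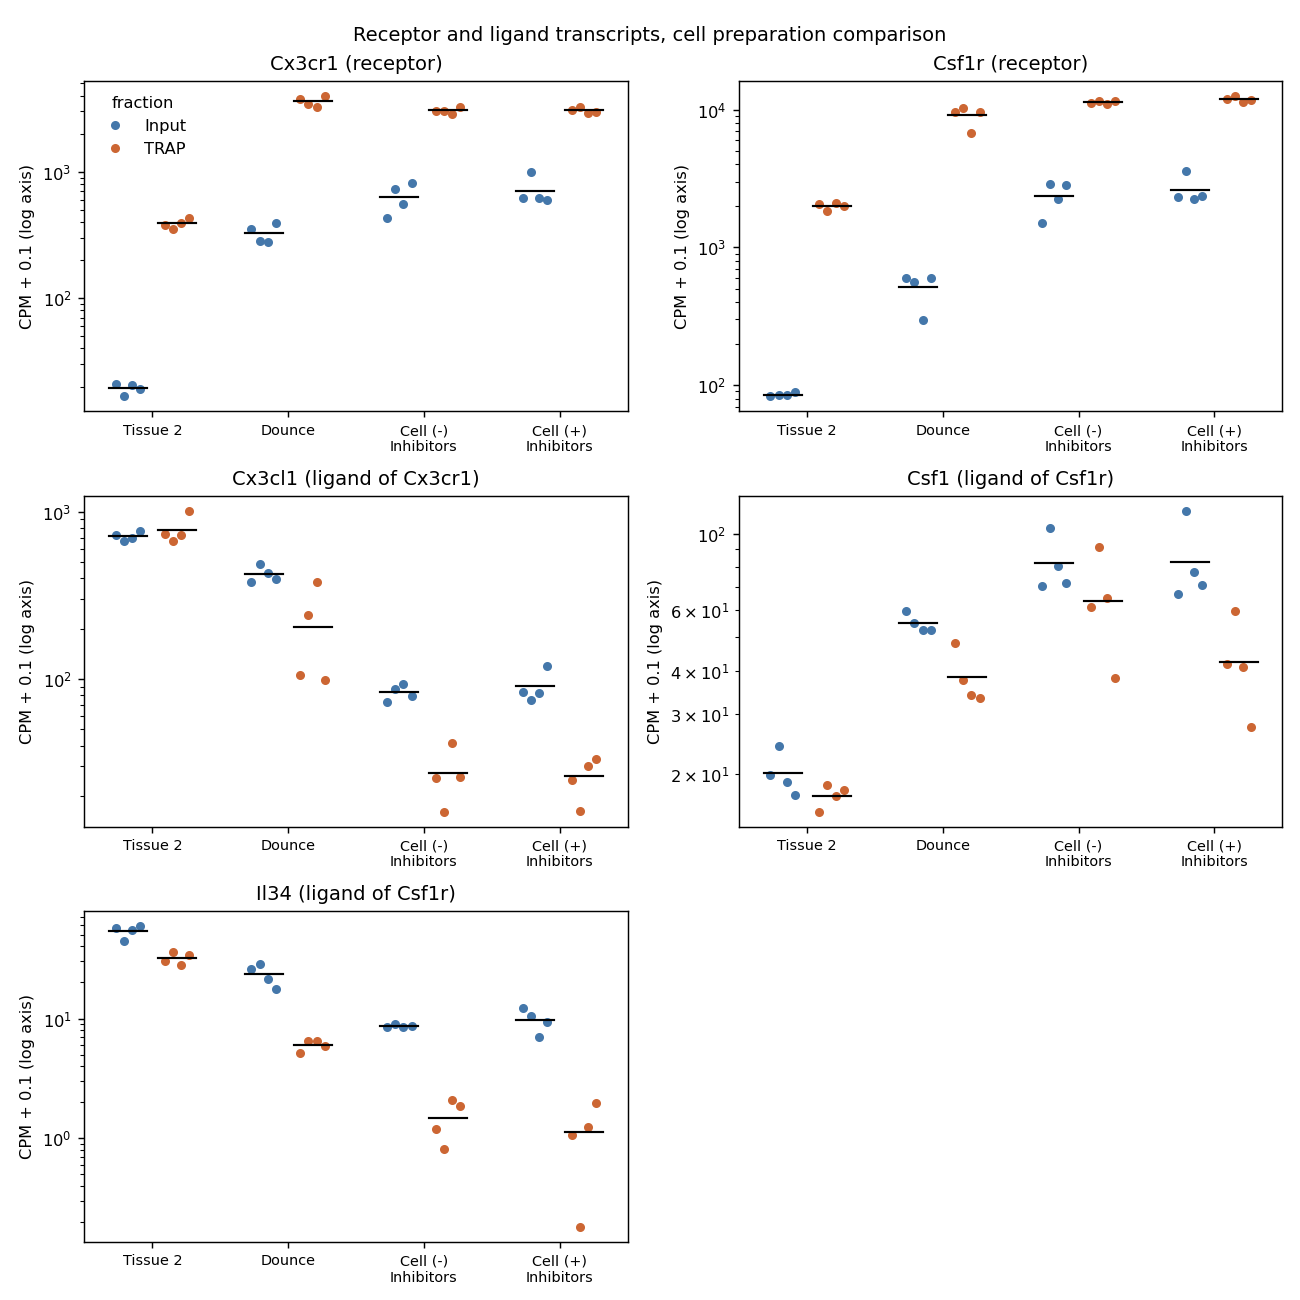
Level of each member in every library of the cell preparation comparison, as CPM + 0.1 on a log axis, by preparation, with Input in blue, TRAP in orange and the group mean of CPM + 0.1 as a bar. Csf1r in Dounce-Input, at 299 to 597 CPM, sits below both suspensions, and Cx3cl1 and Il34 in Dounce lie between tissue and the suspensions. The suspensions without and with inhibitors overlap for every member. Csf1 in TRAP is at 37.9 to 91.0 CPM without and 27.4 to 59.3 CPM with inhibitors.

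Dounce-Input held Cx3cr1 at 349, 281, 276 and 397 CPM and Csf1r at 597, 556, 299 and 596 CPM in mice 179, 180, 181 and 182. Tissue 2-Input held them at 16.6 to 20.8 CPM and 82.7 to 88.7 CPM. Against Tissue 2-Input, Cx3cr1 was 16.2-fold higher (log2 fold change 4.02, SE 0.22, FDR = 5.79e-12) and Csf1r 5.77-fold higher (2.53, SE 0.23, FDR = 8.29e-09). In this contrast 4 of 5 members were called, where 50.1% of all genes were, and Cx3cl1 at 1.75-fold lower was not (-0.81, SE 0.13, FDR = 1.82e-05). Csf1 was 2.63-fold higher (1.40, SE 0.17) and Il34 2.38-fold lower (-1.25, SE 0.16).

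Dounce-TRAP brought Cx3cr1 to 3759, 3409, 3252 and 3973 CPM, 9.23-fold above Tissue 2-TRAP (log2 fold change 3.21, SE 0.10). Csf1r reached 9658, 10247, 6768 and 9635 CPM, 4.57-fold above (2.19, SE 0.11). All 5 members were called, where 50.3% of all genes were, with Cx3cl1 3.86-fold lower (-1.95, SE 0.35), Il34 5.39-fold lower (-2.43, SE 0.39) and Csf1 2.22-fold higher (1.15, SE 0.25, FDR = 0.00047). Csf1 in Dounce-TRAP rested on 84 to 177 counts a library, and without mouse 179 its difference was 0.98 and under the fold of 2. The 9 dissociation response genes stood at 511 to 548 CPM in sum in Dounce-TRAP, beside 344 to 485 CPM in Tissue 2-TRAP and 17257 to 28401 CPM in Cell (-) Inhibitors-TRAP. Cx3cl1 was uneven between these mice, at 105, 240.1, 378 and 98.1 CPM.

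Against the same tissue, all 5 members were called in Cell (-) Inhibitors, where 44.7% of all genes were called in Input and 53.2% in TRAP. In Input, Cx3cr1 was 31.2-fold higher (log2 fold change 4.97, SE 0.23), Csf1r 26.3-fold higher (4.72, SE 0.26) and Csf1 3.89-fold higher (1.96, SE 0.16). Cx3cl1 was 8.96-fold lower (-3.16, SE 0.14) and Il34 6.52-fold lower (-2.70, SE 0.17). The Cell (+) Inhibitors group also had all 5 called in both fractions, against 45.6% and 52.8% of all genes.

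Set against the uninhibited suspension directly, Dounce-Input had Csf1r 4.56-fold lower (log2 fold change -2.19, SE 0.23, FDR = 3.78e-08), Cx3cl1 5.11-fold higher (2.35, SE 0.14, FDR = 1.38e-11) and Il34 2.74-fold higher (1.46, SE 0.17, FDR = 2.71e-07). Those were 3 of 5 members called against 56.8% of all genes. The summed microglial markers were lower beside Csf1r, at 2041 to 2971 CPM in Dounce-Input against 6707 to 10299 CPM, and the summed neuronal markers were higher, at 4416 to 4881 CPM against 562 to 1059 CPM. Cx3cr1 was lower by 1.93-fold (-0.95, SE 0.19, FDR = 0.000154), just inside the fold of 2, and crossed it with upper-quartile factors (-1.03) and without mouse 1361 (-1.09) or mouse 182 (-1.06). In TRAP, Cx3cr1 differed by 0.05 (SE 0.09, FDR = 0.678; 95% interval -0.13 to 0.22), and Csf1r by -0.50 (SE 0.11, FDR = 0.00067). Csf1 was lower in Dounce in both fractions, by -0.56 in Input (SE 0.16, FDR = 0.0028) and -0.93 in TRAP (SE 0.24, FDR = 0.0034), each under the fold of 2. Cx3cl1 was 6.56-fold higher (2.71, SE 0.37) and Il34 3.72-fold higher (1.89, SE 0.43), which were 2 of 5 called against 28.7% of all genes. The summed neuronal markers were also higher in Dounce-TRAP, at 1440.3 to 2440.2 CPM against 101 to 219.9 CPM.

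TRAP enrichment within the Dounce preparation was close to that of tissue for Csf1r, at 21.8-fold (log2 fold change 4.44, SE 0.21) beside 24.7-fold in Tissue 2 (4.63, SE 0.21), and was 13.5-fold for Cx3cr1 (3.76, SE 0.17) beside 21.4-fold (4.42, SE 0.18). In Cell (-) Inhibitors the enrichments were 5.38-fold for Cx3cr1 (2.43, SE 0.16) and 5.33-fold for Csf1r (2.41, SE 0.19). The differences between these enrichments were not tested. The members called were 2 of 5 in Tissue 2 against 10.5% of all genes, 3 of 5 in Dounce against 47.5%, 4 of 5 in Cell (-) Inhibitors against 47.3% and 4 of 5 in Cell (+) Inhibitors against 45.6%. By direction, 20.8% of all genes were higher and 26.7% lower in Dounce, and 10.6% were higher and 36.7% lower in Cell (-) Inhibitors. Il34 was 3.22-fold lower in TRAP than in Input of Dounce (-1.69, SE 0.29) and 5.52-fold lower in Cell (-) Inhibitors (-2.47, SE 0.30).

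Transcription and translation inhibitors called none of the 5 members, in a contrast with few calls of any kind, 0.311% of all genes in Input and 0.638% in TRAP, where 94 genes were called in TRAP. A fit of these groups alone called 116 genes, and the same fit with the mouse as a block called 150. At an unadjusted p under 0.05 by edgeR, Csf1 in TRAP was the only member. The receptors were nearly level in TRAP, with Cx3cr1 at 2882 to 3264 CPM without and 2915 to 3275 CPM with inhibitors (log2 difference -0.04, SE 0.09; 95% interval -0.22 to 0.13). Csf1r stood at 10933 to 11542 CPM without and 11355 to 12529 CPM with them (0.03, SE 0.11; 95% interval -0.18 to 0.24). In the same libraries the 9 dissociation response genes summed to 602 to 681 CPM with inhibitors, far below the libraries without. Cx3cl1 differed by -0.11 (SE 0.35), and Il34, on 1 to 29 counts a library, by -0.52 (SE 0.45).

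Csf1 was lower with inhibitors in the TRAP library of every mouse. It went from 64.9 to 40.9 CPM in mouse 156, from 37.9 to 27.4 CPM in mouse 157, from 61.2 to 41.7 CPM in mouse 1361 and from 91.0 to 59.3 CPM in mouse 1362. As ratios these were 0.63, 0.724, 0.681 and 0.652, close to each other although the mice themselves differed more widely. Without regard to pairing, the difference was -0.64 (SE 0.23, FDR = 0.292 by edgeR). In a fit of these groups alone it was -0.62 (FDR = 0.233), and in that fit with the mouse as a block it was -0.61 with an FDR of 6.41e-05, which passes the FDR and stays under the fold of 2. In Input the ratios were 0.957, 0.985, 0.945 and 1.12, and the difference was -0.01 (SE 0.15, FDR = 1). The interaction of inhibitor and fraction came to -0.64 (SE 0.29, FDR = 0.918), with 0.145% of all genes called. Csf1 with inhibitors remained above tissue, 2.71-fold over Tissue 2-TRAP (1.44, SE 0.24, FDR = 2.94e-05).

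**Figure D4:**
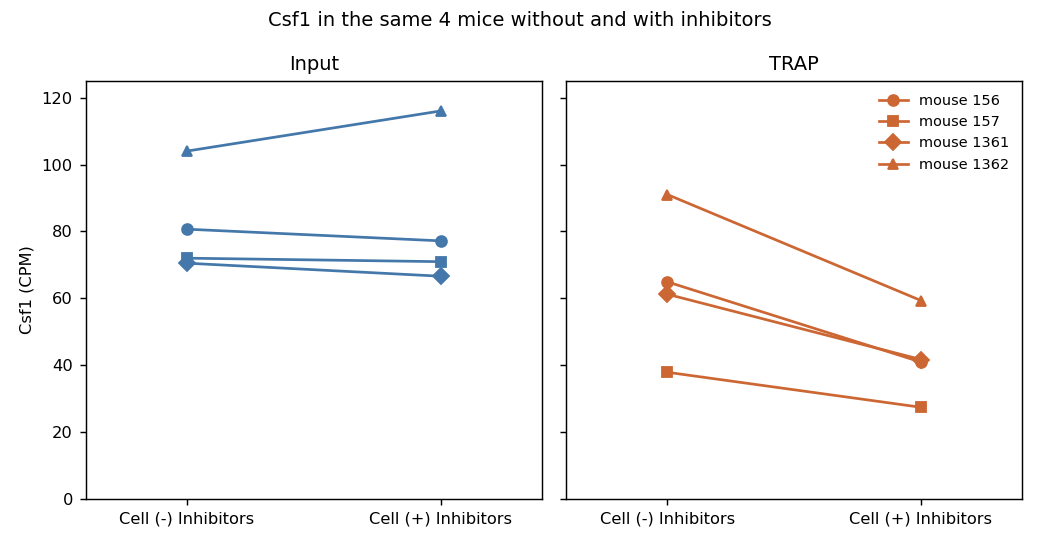
Csf1 in CPM in the 4 mice whose suspensions were made without and with inhibitors, with a line per mouse, for Input on the left and TRAP on the right. All 4 TRAP lines go down, to 0.63 to 0.724 of the level without inhibitors, while the Input ratios run from 0.945 to 1.12.

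The balance of the receptors also differed between preparations. The ratio of Csf1r to Cx3cr1 per kb of exon was 2.815 ± 0.228 (SD, n = 4) in Tissue-Input, 3.485 ± 0.411 in Tissue 2-Input of the same mice, 2.67 ± 0.251 in Cell-Input and 2.91 ± 0.225 in Cell (-) Inhibitors-Input. In Dounce-Input it was 1.33, 1.54, 0.847 and 1.17, and in Dounce-TRAP 2.005, 2.345, 1.62 and 1.89. Csf1r exceeded Cx3cr1 per kb in every library of the study except Dounce-Input of mouse 181. Among sorted libraries the lowest was autoMACS-Input of mouse 72 at 1.16, and the others ran from 1.98 to 2.49. The libraries of autoMACS-Input mouse 72 and Dounce-Input mouse 181 were also the shallowest Input libraries of their comparisons, at 7129464 and 5107604 counts. RNA integrity was lowest in Dounce-Input. Coverage leaned to the 3′ end in the tissue and Dounce groups of the cell preparation comparison. The part of depth, RNA integrity and coverage in this ratio was not tested. This ratio was chosen after the values had been seen and is given without a test. Csf1r has 5.77 kb of exon and Cx3cr1 4.51 kb in the annotation used for the ratio.

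**Figure D5:**
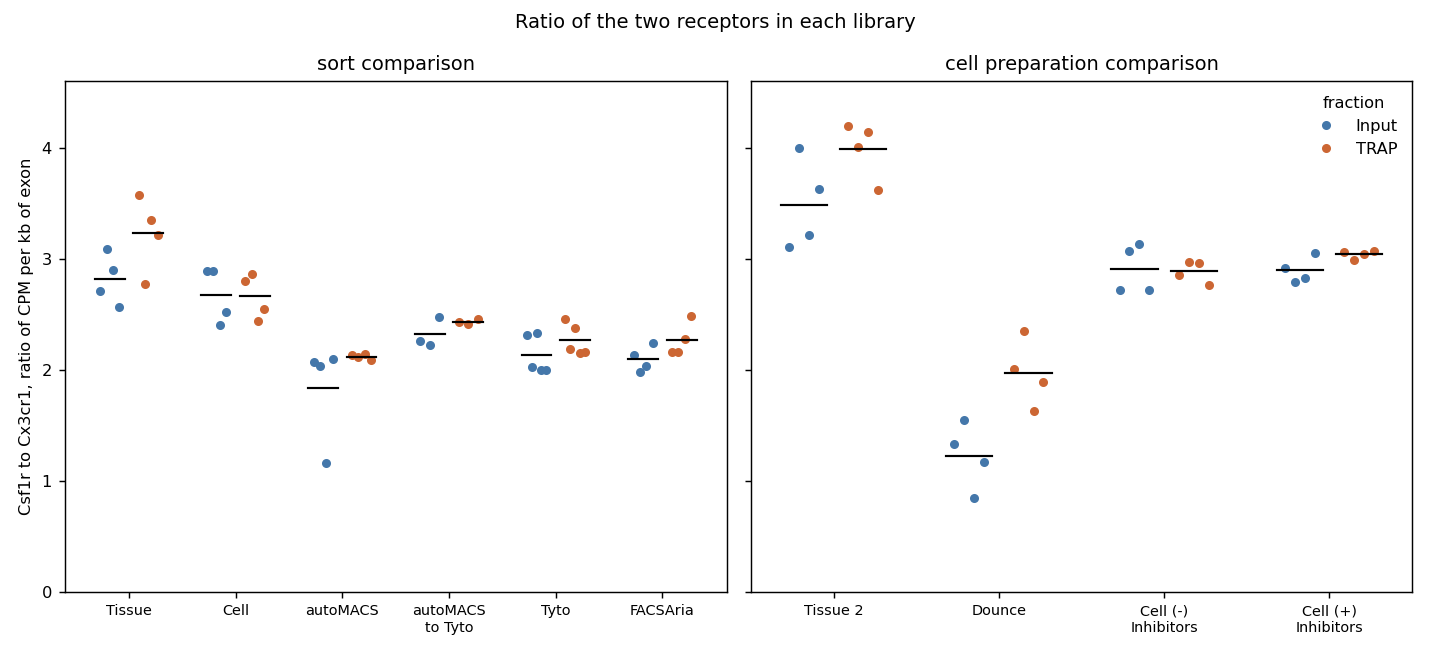
Ratio of Csf1r to Cx3cr1, each as CPM per kb of exon, in every library of both comparisons on a linear axis from 0, with Input in blue, TRAP in orange and the group mean as a bar. The Dounce-Input libraries lie lowest, at 0.847 to 1.54, with the single sorted library of autoMACS-Input mouse 72 at 1.16 among them, and Dounce-TRAP, at 1.62 to 2.345, overlaps the sorted libraries.

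To see whether the receptors moved with other microglial transcripts, each member's log2(CPM + 1) was set against the mean of 12 microglial markers in the same library and compared by an exact two-sided permutation test, for which 4 against 4 libraries can give no p below 0.0286. There were 50 such comparisons over members and group pairs. The test took all libraries as independent, although Cell and Tissue came from the same 4 mice. An exact two-sided test of 4 pairs can give no p below 0.125, so the p-values of Cell against Tissue hold only without regard to pairing. Cx3cr1 rose more than the markers in every dissociated group compared with its tissue, by 0.31 in Cell-Input, 0.55 in Cell-TRAP, 1.19 in Dounce-Input and 1.00 in Dounce-TRAP (each exact permutation p = 0.0286). Csf1r rose by 0.27 in Cell-Input and 0.28 in Cell-TRAP (each exact permutation p = 0.0286). In Cell (-) Inhibitors it differed by 0.19 in Input (exact permutation p = 0.114) and 0.33 in TRAP (exact permutation p = 0.0286), and in Dounce by -0.29 in Input (p = 0.0571) and -0.02 in TRAP (p = 0.914). Csf1 rose less than the markers between Tissue and Cell, at -2.38 in Input and -0.79 in TRAP relative to them (each exact permutation p = 0.0286). In Cell (-) Inhibitors it was at -2.57 in Input (exact permutation p = 0.0286) and -0.41 in TRAP (exact permutation p = 0.257). Against C1qa, C1qb and C1qc alone, a reference chosen after the values were seen, those Dounce values of Csf1r turned positive, at 0.66 in Input and 0.99 in TRAP, and that of Csf1 in Cell-TRAP was at 0.0034 and no longer passed. Between suspensions with and without inhibitors no member reached that p on this scale, and Csf1 in TRAP was at -0.69 (exact permutation p = 0.171). That test took no account of the mouse. Within mice 156, 157, 1361 and 1362, Csf1 in TRAP differed by -0.81, -0.49, -0.64 and -0.82 with inhibitors, and Cx3cr1 by -0.14, -0.16, -0.095 and -0.096, so both were lower in 4 of 4 mice. An exact two-sided permutation test of the signs, added after the values were seen, gave p = 0.125 for each, the smallest that 4 pairs allow.

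The partners of Csf1r were followed through a list of 27 genes of its signalling path, all 27 tested. Between Tissue-TRAP and Tissue-Input 15 were higher and 1 lower, where 9.23% of all genes were higher and 1.87% lower, and the list's median of 1.42 stood beside 0.03 over all genes. The highest were Spi1, which encodes the myeloid transcription factor PU.1 (log2 fold change 5.05, SE 0.14), and Tyrobp, which encodes the adaptor DAP12 (4.88, SE 0.11). The gene that was lower was Ptprz1, a receptor phosphatase that also binds Il34 (-1.72, SE 0.28). Between Cell-TRAP and Tissue-TRAP 16 were higher and 2 lower, with a median of 1.77 beside -0.01 over all genes, of which 25.1% were higher and 29.3% lower. In that contrast the ubiquitin ligase Cbl (4.498, SE 0.24) and the transcription factor Runx1 (3.26, SE 0.11) rose most, and the kinase Fyn (-1.47, SE 0.11) and the syndecan Sdc1 (-1.54, SE 0.49) fell. Between Sorted-TRAP and Cell-TRAP 0 were higher and 2 lower, where 0.836% of all genes were higher and 23.6% lower. The list's median was -0.02 beside -0.05, and the lower genes were Ptprz1 (-7.96, SE 0.21) and Sdc1 (-1.87, SE 0.43).

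A list of 20 genes for the processing of fractalkine and the signalling of Cx3cr1 gave 10 higher and 0 lower between Tissue-TRAP and Tissue-Input. Of all genes, 9.23% were higher and 1.87% lower there, and the list's median was 0.99 beside 0.03 over all genes. The highest were the GTPase Rac2 (log2 fold change 4.84, SE 0.16) and cathepsin S, Ctss (4.65, SE 0.10). Between Cell-TRAP and Tissue-TRAP 14 were higher and 2 lower, where 25.1% of all genes were higher and 29.3% lower. The list's median was 1.46 beside -0.01. The highest were Pik3cg, a kinase activated by G protein-coupled receptors (3.46, SE 0.12), and Adam17, a protease that sheds fractalkine (3.28, SE 0.09), and the lowest was Gnai1, a G protein subunit (-3.50, SE 0.23). The summed microglial markers were also higher in Cell-TRAP, at 33142 to 36605 CPM against 9105 to 10572 CPM, and their part was not tested. In the direct comparison of Dounce-TRAP with Cell (-) Inhibitors-TRAP 2 were higher and 0 lower, where 20.7% of all genes were higher and 8.02% lower and the medians were -0.35 and -0.01. The higher genes were the receptor kinase Grk3 (2.01, SE 0.14) and the integrin Itga4 (2.01, SE 0.25).

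The other class III receptor tyrosine kinases and their ligands were a list of 10 genes. Between Cell-TRAP and Tissue-TRAP 3 were higher and 3 lower, where 25.1% of all genes were higher and 29.3% lower, with a median of 0.45 beside -0.01 over all genes. The largest increases were those of the growth factor genes Pdgfd (3.27, SE 0.48) and Pdgfb (2.73, SE 0.13). The largest decreases were those of Kit, the receptor of stem cell factor (-3.91, SE 0.27), and Flt3 (-2.42, SE 0.32). Between Sorted-TRAP and Cell-TRAP 0 were higher and 5 lower, where 0.836% of all genes were higher and 23.6% lower, with a median of -1.16 beside -0.05, among them Kit (-7.09, SE 0.42) and Pdgfd (-6.33, SE 0.39). With inhibitors, none of the genes of these lists was called in either fraction by edgeR. Few genes of any kind were called there, 0.311% of all genes in Input and 0.638% in TRAP.

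Genes with the most similar course were sought by the Pearson correlation of group means of log2(CPM + 1) over the 12 groups of the sort comparison, among 12054 genes that reached 10 CPM in some group. The groups share mice and composition, so the values are descriptive. Cx3cr1 was closest to Slc37a2 (0.999), Lpcat2, Tnfrsf1b, Slc11a1 and Cd86, and Csf1r to Lgals9 (0.9991), Mpeg1, Nckap1l, Was and Nfam1. The receptors correlated with each other at 0.9963, and at 0.9758 over the 8 groups of the cell preparation comparison. Cx3cl1 was closest to Lmo7 (0.9977), Chgb, Slc6a17, Gfod1 and Cdh13, and Il34 to Reep1 (0.9987), Tmem178, Sgsm1, Syt4 and Golga7b, and these ligands correlated at 0.9911. Csf1 stood apart, closest to Wdr20a at 0.9759, followed by Thbs1, Fzd8, Fmr1 and Ehhadh, and at -0.77 with Il34. Over the 8 groups of the cell preparation comparison, Csf1 stood at 0.72 with Wdr20a, 0.64 with Fzd8 and 0.67 with Fmr1. It stood at 0.937 with Thbs1, 0.939 with Ehhadh and -0.51 with Il34 there. The neighbours of Cx3cl1 ran there from 0.80 (Cdh13) to 0.994 (Slc6a17).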

How the data were processed

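RNA sequencing of Input and TRAP fractions was analysed in 80 libraries, 48 in the sort comparison and 32 in the cell preparation comparison. The authors trimmed and aligned poly(A)-selected, directional paired-end reads to mm10 in Strand NGS, removed duplicate reads, quantified genes, and dropped any gene that had no group in which all samples exceeded 5 reads. The deposited values are estimated counts per gene, of which 33.2% and 20.8% were whole numbers in the respective tables, and the annotation behind them is not given in the sources used here. An earlier table of part of the cell preparation libraries was not used.

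Counts were rounded and tested with edgeR 4.0.16 (R 4.3.3), with TMM factors, the authors' filter and the quasi-likelihood test with Benjamini-Hochberg adjustment over all genes. A gene was called at an FDR under 0.1 and a fold above 2. Comparisons within a fraction used all groups of that fraction, and comparisons of fractions used all groups of the table, each with group as the only factor. Standard errors were taken as the log2 fold change over the root of the F statistic. CPM are counts per 1000000 listed counts, and levels per kb use union exon lengths from GENCODE M21, which may differ from the annotation used for counting. Alternatives were DESeq2 1.42.0 size factors, upper-quartile factors, no further filter, only the groups compared, the DESeq2 Wald test, the mouse as a block, and leaving out each library in turn. A further choice of microglial reference genes is not reported here. The scripts were tested on simulated counts.

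Groups came from the sample titles. Labels name separate mice, so replicates are animals, and Input and TRAP of a mouse come from a single homogenate. There is no autoMACS to Tyto library of mouse 72. Same-numbered libraries are the same mouse. Correlations of their deviations from the group means were -0.011 to 0.0256 between Tissue-Input and Cell-Input, 0.0402 to 0.125 between Tissue-TRAP and Cell-TRAP, -0.0411 to 0.0788 between the suspensions without and with inhibitors in Input and 0.0556 to 0.309 in TRAP. Genes to be named were the 5 members in every comparison, up to 4 called examples of each list per comparison, 2 in each direction by fold change, and the 5 genes most correlated with each member. The members and lists were chosen with earlier results of these data known.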

Additional observations from a re-analysis of the deposited data

Results flagged for a closer look

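In 88 groups of 4 or 5 libraries, 9 had a library farther from the others than Dixon's 95% limit, where chance gives about 1 in 20. Csf1r in Tissue-Input stood at 127.3 CPM in mouse 947, above 78.3 to 79.9 CPM in the others. Csf1r in autoMACS-Input stood at 3538.3 CPM in mouse 72, below 8293 to 9175 CPM. Cx3cl1 in Tissue-TRAP stood at 801.4 CPM in mouse 949, above 633 to 659 CPM. Cx3cl1 in FACSAria-Input stood at 6.577 CPM in mouse 991, above 0.642 to 1.14 CPM, and in FACSAria-TRAP of that mouse at 1.496 CPM, above 0.370 to 0.482 CPM. Csf1 in Cell-Input stood at 95.80 CPM in mouse 947, above 71.4 to 74.5 CPM. In Cell (+) Inhibitors-Input, mouse 1362 was highest for Cx3cr1, at 999.7 CPM above 599 to 617 CPM, and for Csf1r, at 3578.3 CPM above 2228 to 2344 CPM. Csf1r in Dounce-Input stood at 299.3 CPM in mouse 181, below 556 to 597 CPM.

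The TRAP enrichment differed between suspension and tissue, by the interaction term in edgeR's quasi-likelihood test with Benjamini-Hochberg adjustment. The log2 difference was -1.523 for Cx3cr1, -1.710 for Csf1r, -1.372 for Cx3cl1 and -1.409 for Il34. The summed microglial and neuronal markers shifted in the same direction, and the part of cell composition was not tested. All 4 mice gave libraries in every cell of this contrast.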

How the results depend on the processing

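Of 1952 recomputed fold changes of the members, 1917 kept their direction and their side of the threshold. Of 416 recomputed counts of genes called, 409 stayed within 1.5 times the reported count. The cause of the changes below was not tested. With DESeq2's size factors the difference of Csf1 between Sorted-Input and Cell-Input was -0.094, and with the DESeq2 Wald test -0.092. Upper-quartile factors gave -1.03 for Cx3cr1 between Dounce-Input and Cell (-) Inhibitors-Input, past the fold of 2. With only the groups compared, TRAP against Input of sorted cells called 1383 genes instead of 2994, the F test between sorts called 484 instead of 1169 in Input and 394 instead of 624 in TRAP, the widest difference of Cx3cl1 in Input was 2.98 and no longer called, and Csf1 between the fractions of Cell (-) Inhibitors was 0.13. With the mouse as a block as well, in a fit of only the groups compared, TRAP against Input of sorted cells called 1364 genes, with Csf1 at 0.0056, the inhibitors called 150 genes in TRAP (116 without the block, 94 as reported), their interaction with fraction called 48 (34 without the block, 23 as reported), and Csf1 between the fractions of Cell (-) Inhibitors was 0.088. That fit changed no other call of a member. The DESeq2 Wald test called 41 genes in that interaction.

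Leaving out 1 library at a time gave, for Cx3cl1, 2.49 to 3.68 between sorts in Input, -1.43 to -0.88 between the fractions of sorted cells, not called without FACSAria-Input of mouse 991 or autoMACS to Tyto-Input of mouse 66, and -1.52 to -0.54 between those of Dounce, where it was called without the TRAP library of mouse 181. Cx3cr1 between Dounce-Input and Cell (-) Inhibitors-Input ranged from -1.09 to -0.80, and in TRAP from -0.010 to 0.10. Csf1 ranged from -1.11 to -0.68 between Dounce-TRAP and Cell (-) Inhibitors-TRAP, called without mouse 157 or 179, from 0.98 to 1.21 between Dounce-TRAP and Tissue 2-TRAP, and from -1.05 to -0.65 between the fractions of Cell (+) Inhibitors, called without the TRAP library of mouse 1362. The inhibitor contrast in Input, where no member was called, ranged from -0.066 to 0.28 for Cx3cr1, -0.057 to 0.22 for Csf1r, -0.073 to 0.18 for Cx3cl1 and -0.21 to 0.12 for Csf1. In TRAP, Cx3cl1 ranged from -0.28 to 0.15. Its interaction with fraction ranged from -0.34 to 0.0042 for Cx3cr1, -0.20 to 0.072 for Csf1r and -0.38 to 0.044 for Cx3cl1.

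Relative to the microglial markers, 453 of 500 values kept direction and call after adjustment over the family, and with 3 libraries left in a group the exact test has fewer arrangements. Against C1qa, C1qb and C1qc alone, an alternative chosen after seeing the data, Csf1r was at 0.660 in Dounce-Input, 0.986 in Dounce-TRAP and 0.679 in Cell (-) Inhibitors-Input, and Csf1 at 0.0034 in Cell-TRAP, -0.442 in Dounce-Input, -0.098 in Dounce-TRAP, 0.343 in Cell (-) Inhibitors-TRAP and -0.318 in Cell (+) Inhibitors-TRAP, each against its tissue, and Il34 was at 0.032 between the suspensions in Input. With a pseudocount of 0.5, Csf1r was at -0.334 in Dounce-Input and 0.147 in Cell (+) Inhibitors-Input against tissue, and at -7.4e-05 between the suspensions in Input. Leaving out a library, Csf1r against tissue ranged from 0.241 to 0.314 in Cell-Input, -0.370 to -0.164 in Dounce-Input, -0.098 to 0.082 in Dounce-TRAP, 0.131 to 0.281 in Cell (-) Inhibitors-Input, 0.276 to 0.369 in Cell (-) Inhibitors-TRAP, 0.154 to 0.229 in Cell (+) Inhibitors-Input and 0.243 to 0.323 in Cell (+) Inhibitors-TRAP. Csf1 ranged from -0.645 to -0.152 in Cell (-) Inhibitors-TRAP and -1.29 to -0.909 in Cell (+) Inhibitors-TRAP, and Cx3cr1 from 0.336 to 0.451 in Cell (-) Inhibitors-Input. Between the suspensions, the Input ranges were -0.052 to 0.038 for Cx3cr1, -0.088 to 0.061 for Csf1r, -0.26 to 0.136 for Cx3cl1 and -0.19 to 0.072 for Il34, and the TRAP ranges -0.171 to -0.084 for Cx3cr1, -0.086 to 0.0070 for Csf1r and -0.338 to 0.069 for Cx3cl1. Depth limits Il34 and Cx3cl1 in sorted cells.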

Other observations

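Genes of the receptors' signalling paths were more often higher than lower in TRAP compared with Input in tissue, in the Dounce preparation and in the suspensions without and with inhibitors. Of the 27 genes of the Csf1r path, 20 were higher and 2 lower in Dounce-TRAP than in Dounce-Input, with a median log2 fold change of 2.00 beside -0.21 over all genes, of which 20.8% were higher and 26.7% lower. In Cell, 18 were higher and 3 lower, with a median of 1.67 beside -0.07 over all genes, of which 16.8% were higher and 30.9% lower. In Cell (-) Inhibitors, 15 were higher and 3 lower, with a median of 1.10 beside -0.42 over all genes, of which 10.6% were higher and 36.7% lower. In Cell (+) Inhibitors, 14 were higher and 3 lower, with a median of 1.12 beside -0.39 over all genes, of which 45.6% were called. In Tissue 2, 14 were higher and 1 lower, with a median of 1.34 beside 0 over all genes, of which 10.5% were called. In sorted cells 0 were higher and 2 lower, where 18.9% of all genes were called. The highest in Dounce included Spi1 at 3.95 (SE 0.15) and, among the fractalkine genes, Ctss at 4.39 (SE 0.14). Of the 20 fractalkine genes, 16 were higher and 3 lower in Dounce, 12 were higher and 1 lower in Cell, and 10 were higher and 1 lower in Cell (-) Inhibitors. In Cell (+) Inhibitors 10 were higher and 1 lower, and in Tissue 2 9 were higher and 0 lower. The difference between these preparations was not tested. Flt3, which encodes a relative of Csf1r, was 12.3-fold higher in Dounce-TRAP than in Cell (-) Inhibitors-TRAP (log2 fold change 3.62, SE 0.33), and Pdgfd was 12.6-fold lower (-3.66, SE 0.86). Of the 10 genes of their list, 2 were higher and 1 lower, where 20.7% of all genes were higher and 8.02% lower. The summed markers of border-associated macrophages stood at 660 to 1572 CPM in Dounce-TRAP and at 510 to 1194 CPM in Cell (-) Inhibitors-TRAP. The summed neuronal markers stood at 1440.3 to 2440.2 CPM in Dounce-TRAP and at 101 to 219.9 CPM in Cell (-) Inhibitors-TRAP. The part of these cells in the differences of Flt3 and Pdgfd was not tested.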
